A study of Mus musculus with 6 samples.

Results

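The contractile genes of vascular smooth muscle and the marker genes of pericytes were followed in the apex of 6 mouse hearts. The set holds 10 genes chosen by name: the contractile genes Acta2, Tagln, Myh11, Cnn1, Smtn and Lmod1, the pericyte genes Rgs5, Cspg4 and Pdgfrb, and Pdgfb, whose product recruits pericytes. All probe sets annotated with 1 of these symbols were taken, which gave 10 of 18193 genes named by a single symbol and 19 of the 45101 probe sets on the Affymetrix array. Each array measured total RNA from 1 heart of a male mouse aged 6 to 7 weeks. The 3 alpha MHC Cre hearts were Fog2flox/delta with the Cre transgene, and the 3 no Cre hearts were Fog2flox/delta without it. Every heart therefore carried 1 floxed and 1 deleted allele of Fog2 (official symbol Zfpm2), a cofactor of GATA transcription factors, so the no Cre hearts were not wild type. The alpha MHC promoter is active in cardiomyocytes, not in smooth muscle cells or pericytes. No heart carried Cre without the floxed allele, so Cre alone and loss of Fog2 cannot be told apart.

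Arteries of the heart are wrapped by smooth muscle cells, whose actin, myosin and actin-binding proteins set the width of the vessel. Capillaries are covered by pericytes, which endothelial cells recruit by secreting platelet-derived growth factor B onto its receptor on the pericyte. Transcription of the contractile genes depends on serum response factor, which binds the CArG box, and on its cofactor myocardin. The comparison asks whether the vessel wall cells of the apex leave a different RNA signal when Fog2 can be deleted in the neighbouring cardiomyocytes. In such bulk samples, fewer cells of a type and less RNA per cell cannot be told apart.

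The median log2 signal of an array was 5.72 to 5.81, and pairs of arrays correlated at 0.980 to 0.987 within a group and at 0.964 to 0.973 between groups, across tested probe sets. The number of arrays, 3 a group, limits the precision. The 10 cardiomyocyte genes checked, among them Myh6 and Actc1, read 12.27 or more in every heart, and 0 of them passed the test. Several, such as Myh6 (13.81 to 13.90) and Actc1 (13.56 to 13.68), lay near the array maxima of 13.97 to 14.00. A rise in these could be missed. The brighter probe set of Zfpm2 read 10.71, 10.48 and 10.50 in alpha MHC Cre hearts against 8.86, 8.83 and 8.95 in no Cre hearts, and the dimmer one 5.46, 5.61 and 5.65 in alpha MHC Cre hearts against 6.34, 6.40 and 6.65 in no Cre hearts. These probe sets went in opposite directions. Their places in the transcript are unknown here, so neither checks the deletion.

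None of the 8 member genes bright enough to be tested passed the threshold (limma, adjusted p under 0.05), where 6.24% of all 13062 tested genes did. Of their 14 tested probe sets 0 passed, against 5.23% of all 27022. At an unadjusted p under 0.05 there were 2 of 8, Acta2 and Smtn, against 19% of all tested genes. The other 2 genes, Cnn1 and Lmod1, lay below the filter on low signal, as did 5 of the 19 probe sets. The median difference of the 8 genes was 0.10 on the log2 scale, alpha MHC Cre minus no Cre, with a median of -0.01 over all tested genes. By 95% intervals, 7 of the 8 genes lay within 2-fold in either direction, Acta2 being the exception. The same share over all tested genes is not given, so this count does not set the members apart. Of the 8 genes, 4 (Tagln, Myh11, Rgs5 and Pdgfrb) differed by less than 0.05, as did 19% of all tested genes.

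**Figure D1:**
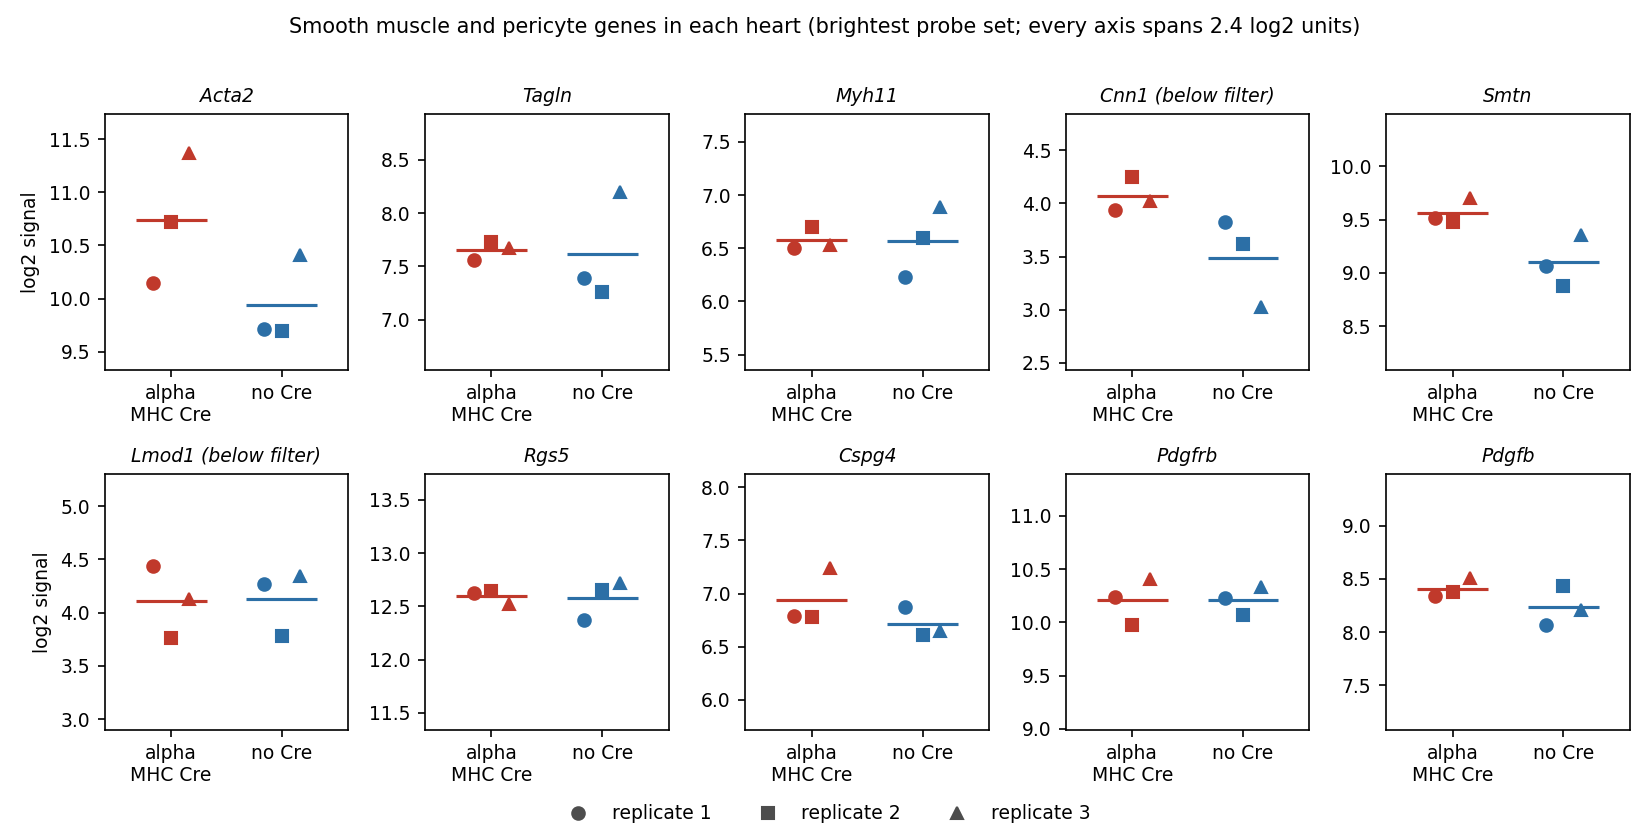
Log2 signal of the brightest probe set of each of the 10 genes in every heart, alpha MHC Cre hearts at the left and no Cre hearts at the right of each panel. Marker shapes give the replicate number and lines the group mean. The groups do not overlap for Smtn and for Cnn1, which lies below the filter.

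Acta2 encodes smooth muscle alpha-actin, the main actin of contractile smooth muscle, which activated fibroblasts and immature cardiomyocytes also make. Its bright probe set read 10.15, 10.72 and 11.37 in alpha MHC Cre hearts against 9.71, 9.70 and 10.42 in no Cre hearts. All alpha MHC Cre hearts lay above no Cre 1 and 2, but no Cre 3 lay above alpha MHC Cre 1, so the groups overlapped. The means were 10.74 ± 0.61 in alpha MHC Cre hearts and 9.94 ± 0.41 in no Cre hearts (SD, n = 3 each). The difference was 0.80 ± 0.30 (SE) on the log2 scale, or 1.74-fold with a 95% interval of 1.09 to 2.79, and did not pass (limma, adjusted p 0.198). It depended on single hearts, at 0.49 without alpha MHC Cre 3 and 1.10 without alpha MHC Cre 1. The other Acta2 probe sets were dim, below the filter, and differed by -0.11 ± 0.13 and -0.09 ± 0.40.

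The promoter of Acta2 is shown because this gene had the highest difference among the members, and that of Smtn because its groups were fully separated. Myl9, described with the other contractile genes below, was chosen after its values were seen and is shown beside them. The sequences are the 250 bases before the start site in RefSeq (GRCm38.p6), at chr19:34255374-34255623 on the minus strand for Acta2, chr11:3539293-3539542 on the minus strand for Smtn and chr2:156775214-156775463 on the plus strand for Myl9. Capitals mark the CArG box, counted with at most 1 C or G among its 6 central bases.
Acta2: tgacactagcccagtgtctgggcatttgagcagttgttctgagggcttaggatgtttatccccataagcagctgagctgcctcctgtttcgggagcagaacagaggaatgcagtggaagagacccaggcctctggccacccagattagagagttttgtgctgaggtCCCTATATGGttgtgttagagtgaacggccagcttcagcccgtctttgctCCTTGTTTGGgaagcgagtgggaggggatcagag
Smtn: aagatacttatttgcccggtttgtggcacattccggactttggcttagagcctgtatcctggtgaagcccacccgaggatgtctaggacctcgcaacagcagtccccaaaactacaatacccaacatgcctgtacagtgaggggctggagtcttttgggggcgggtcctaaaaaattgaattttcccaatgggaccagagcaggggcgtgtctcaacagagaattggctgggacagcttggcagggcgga
Myl9: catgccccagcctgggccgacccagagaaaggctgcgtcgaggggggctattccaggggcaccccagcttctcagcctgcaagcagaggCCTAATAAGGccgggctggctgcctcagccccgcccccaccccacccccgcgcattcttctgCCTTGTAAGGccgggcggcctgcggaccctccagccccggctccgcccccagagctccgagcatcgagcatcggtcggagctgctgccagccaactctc
In this form the box stood at 84 to 75 and at 34 to 25 bases before the start in Acta2 and at 161 to 152 and 99 to 90 bases before it in Myl9. The first of these in Myl9 had the exact form, with only A and T in the centre. Smtn held none in its window. Such a box was found in 8.59% of all 32851 promoters of the same length, and the exact form in 1.47%. Of the 10 members, 6 have a promoter in the table, and Cnn1, Lmod1, Rgs5 and Cspg4 held no box of either form. The GATA letters AGATAA or AGATAG or TGATAA or TGATAG, searched on both strands, occurred once among the members, in Rgs5 at 238 to 233 bases before the start on the minus strand, and in 26.5% of all promoters. No GATA match overlapped a CArG box in these promoters. These matches describe letters only.

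Smtn encodes smoothelin, an actin-binding protein of contractile smooth muscle. It read 9.51, 9.48 and 9.70 in alpha MHC Cre hearts against 9.06, 8.88 and 9.36 in no Cre hearts. All 3 alpha MHC Cre hearts lay above all 3 no Cre hearts, a separation that 26.1% of tested genes showed in one direction or the other and 13.2% in this one. The difference of 0.47 ± 0.15 (SE), or 1.38-fold with a 95% interval of 1.10 to 1.74, did not pass (limma, adjusted p 0.122). It passed only with the trend and robust variance settings (adjusted p 0.048) among 15 alternatives, whose adjusted p ran up to 0.326.

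Tagln encodes transgelin, or SM22, an actin-binding protein that is an early marker of smooth muscle. It read 7.56, 7.73 and 7.67 in alpha MHC Cre hearts against 7.39, 7.26 and 8.19 in no Cre hearts, a difference of 0.04 ± 0.22 (SE; fold interval 0.723 to 1.45). No Cre 3 was the highest of all 6 hearts, and without it the difference was 0.32. Myh11, the smooth muscle myosin heavy chain and the marker most restricted to smooth muscle, read 6.51, 6.70 and 6.53 in alpha MHC Cre hearts against 6.23, 6.60 and 6.89 in no Cre hearts. The alpha MHC Cre hearts lay inside the range of the no Cre hearts, with a difference of 0.01 ± 0.17 and a fold interval of 0.771 to 1.31. Its dim second probe set, below the filter, differed by -0.34 ± 0.24.

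Cnn1, calponin 1, which damps the myosin ATPase in smooth muscle, and Lmod1, the leiomodin that nucleates actin filaments there, were too dim to be tested. Cnn1 read 3.94, 4.25 and 4.02 in alpha MHC Cre hearts against 3.82, 3.62 and 3.03 in no Cre hearts. The groups did not overlap, with a difference of 0.58 ± 0.23 and a fold interval of 0.997 to 2.24, but in the limma fit without a filter the adjusted p was 0.40. Lmod1 differed by -0.02 ± 0.24, with both groups spread between 3.76 and 4.44. The SD of Cnn1 was 0.16 in alpha MHC Cre hearts and 0.41 in no Cre hearts.

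**Figure D2:**
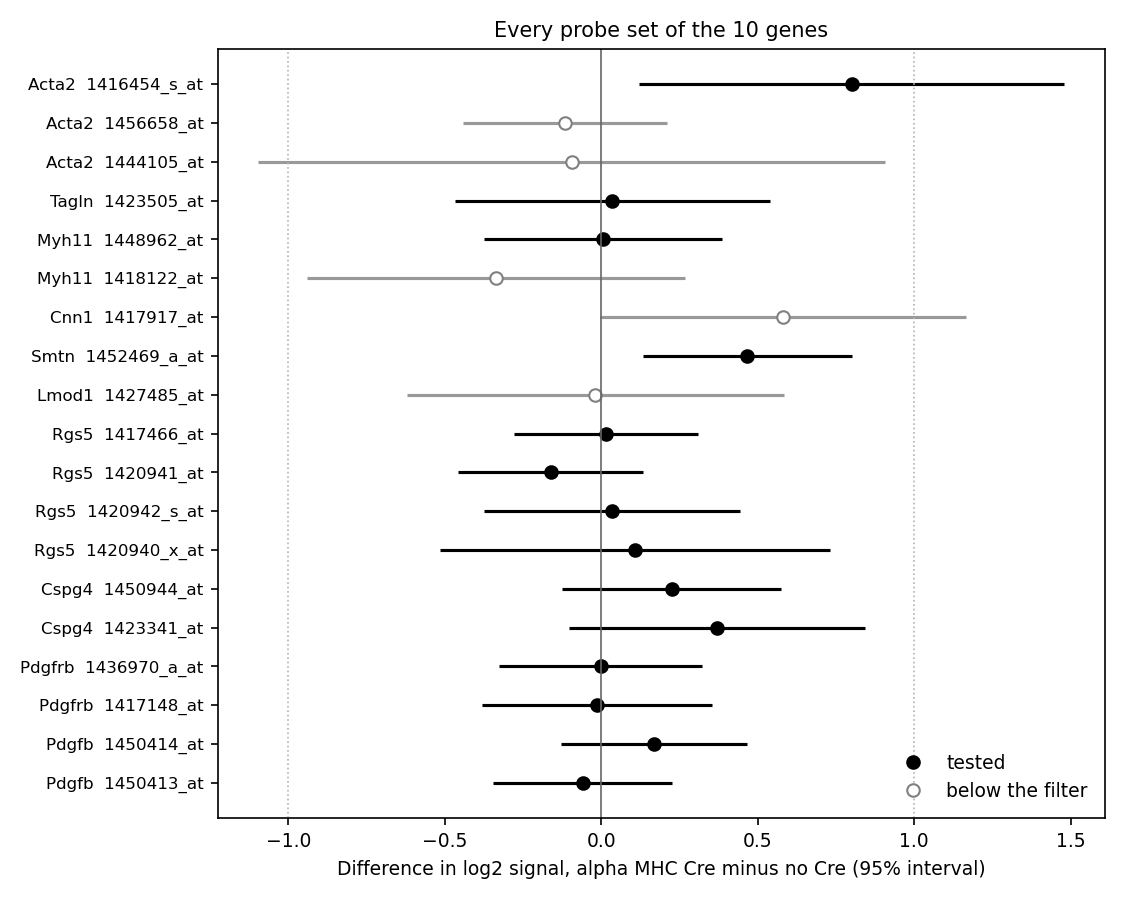
Difference in log2 signal, alpha MHC Cre minus no Cre, for all 19 probe sets, with 95% intervals from limma. Filled points were tested and open points lay below the filter. The intervals of the bright Acta2 probe set and of Smtn lie wholly above 0, and the other 17 include 0.

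Among the pericyte genes, Rgs5 encodes a regulator of G protein signalling enriched in pericytes. Its brightest probe set read 12.63, 12.64 and 12.52 in alpha MHC Cre hearts against 12.37, 12.66 and 12.72 in no Cre hearts, a difference of 0.02 ± 0.13 (SE) with a fold interval of 0.825 to 1.24. The array maxima were 13.97 to 14.00. Its other 3 probe sets differed by -0.16 ± 0.13, 0.03 ± 0.18 and 0.11 ± 0.28, none of which passed. In all but one of the 4, no Cre 1 was the lowest heart, reading 8.91 in the dimmest of them against 9.48 or more elsewhere.

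Pdgfrb encodes the receptor through which pericytes are recruited and which fibroblasts also carry. It read 10.24, 9.98 and 10.41 in alpha MHC Cre hearts against 10.23, 10.07 and 10.33 in no Cre hearts. The groups overlapped, with a difference of -0.0014 ± 0.14 (SE) and a fold interval of 0.798 to 1.25, and its second probe set differed by -0.01 ± 0.16. Pdgfb, the ligand made by endothelial cells, read 8.34, 8.38 and 8.50 in alpha MHC Cre hearts against 8.07, 8.43 and 8.21 in no Cre hearts. It differed by 0.17 ± 0.13, with a fold interval of 0.915 to 1.38, and its dimmer probe set by -0.06 ± 0.13. The difference was 0.083 without no Cre 1, 0.267 without no Cre 2 and 0.055 as the mean of both probe sets. Neither the ligand nor the receptor passed (limma, adjusted p 0.582 and 0.998).

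Cspg4, the proteoglycan NG2 of the pericyte surface, read 6.79, 6.78 and 7.24 in alpha MHC Cre hearts against 6.88, 6.61 and 6.65 in no Cre hearts. In both of its probe sets alpha MHC Cre 3 was highest and no Cre 2 lowest. The differences of 0.23 ± 0.16 and 0.37 ± 0.21 (SE) did not pass, and the first was 0.08 without alpha MHC Cre 3.

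Several of these genes had their highest or lowest value in the same heart. Whether they moved together was not tested. Among the no Cre hearts, no Cre 3 was the highest for 4 of 4 tested contractile genes and for 6 of the 8 tested members, where 49.1% of all tested genes had their highest no Cre value in it. Of the other 19 tested contractile and cytoskeletal genes of smooth muscle, 13 were also highest there. That list does not report smooth muscle alone: it holds Mylk4 of striated muscle and Pln, which is also counted among the cardiomyocyte genes. Over all 6 hearts, alpha MHC Cre 3 was the highest for 5 of the 8 members (Acta2, Smtn, Cspg4, Pdgfrb and Pdgfb) and no Cre 3 for the other 3, shares of 17.4% and 24.3% among all tested genes. The lowest heart was no Cre 2 for 4 members and no Cre 1 for 3.

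**Figure D3:**
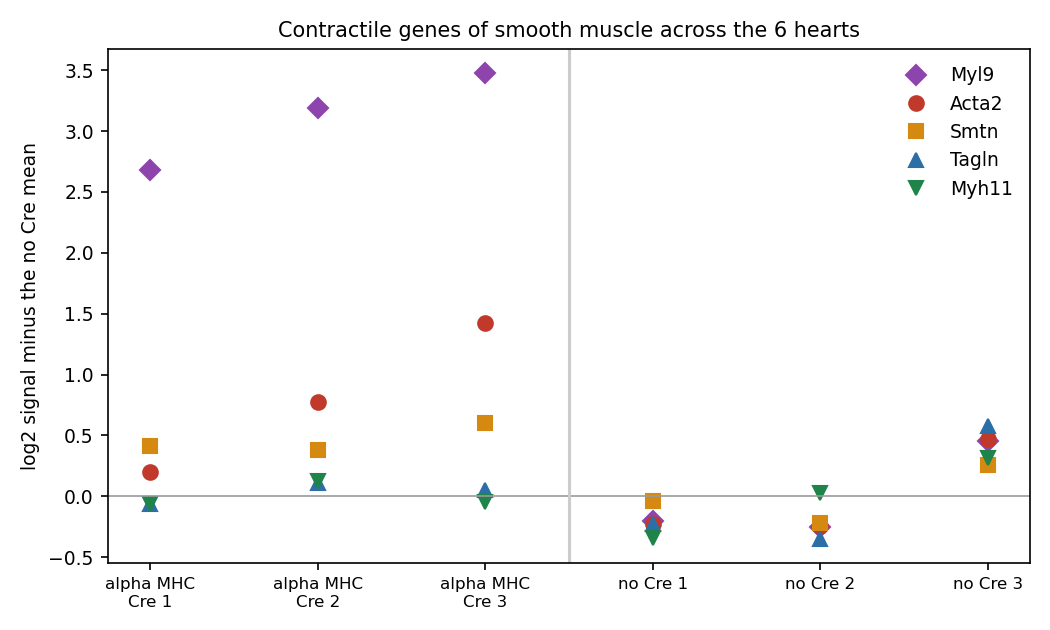
Log2 signal of Myl9 and the 4 tested contractile members in each of the 6 hearts, as the distance from the gene's mean in no Cre hearts. No Cre 3 is the highest no Cre heart for all 5 genes and so necessarily lies above 0 for each. In alpha MHC Cre hearts Myl9 and Acta2 stand apart from Tagln and Myh11.

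Because the same hearts were often highest, each contractile gene was expressed relative to the others of the same heart. This choice was made after the values had been seen. The log2 ratio of Acta2 to Tagln was 2.59, 2.99 and 3.70 in alpha MHC Cre hearts against 2.32, 2.44 and 2.22 in no Cre hearts. Every alpha MHC Cre heart lay above every no Cre heart, by 0.77 on average (0.46 without alpha MHC Cre 3). The ratio of Acta2 to Myh11 was 3.64, 4.02 and 4.84 in alpha MHC Cre hearts against 3.48, 3.10 and 3.53 in no Cre hearts, again without overlap, with a difference of 0.80 (0.46 without alpha MHC Cre 3). After the subtraction of Tagln or of Myh11, 5.01% and 5.73% of tested genes were higher in alpha MHC Cre hearts without overlap.

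The ratio of Tagln to Smtn was -1.96, -1.75 and -2.03 in alpha MHC Cre hearts against -1.67, -1.61 and -1.16 in no Cre hearts, lower by 0.43 without overlap (-0.27 without no Cre 3). The ratio of Tagln to Myh11 differed by 0.03 and overlapped, as did that of Acta2 to Smtn, at 0.33, and that of Myh11 to Smtn, at -0.46. With single hearts left out these ran from -0.16 to 0.16, from 0.092 (without alpha MHC Cre 3) to 0.605 (without alpha MHC Cre 1) and from -0.61 to -0.34. Of the 6 ratios, 3 thus separated the groups, each with a two-sided exact permutation p of 0.1 (0.2 after Benjamini-Hochberg adjustment over the 6). A p of 0.1 is the smallest that 3 hearts against 3 allow, so these ratios cannot pass the threshold.

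**Figure D4:**
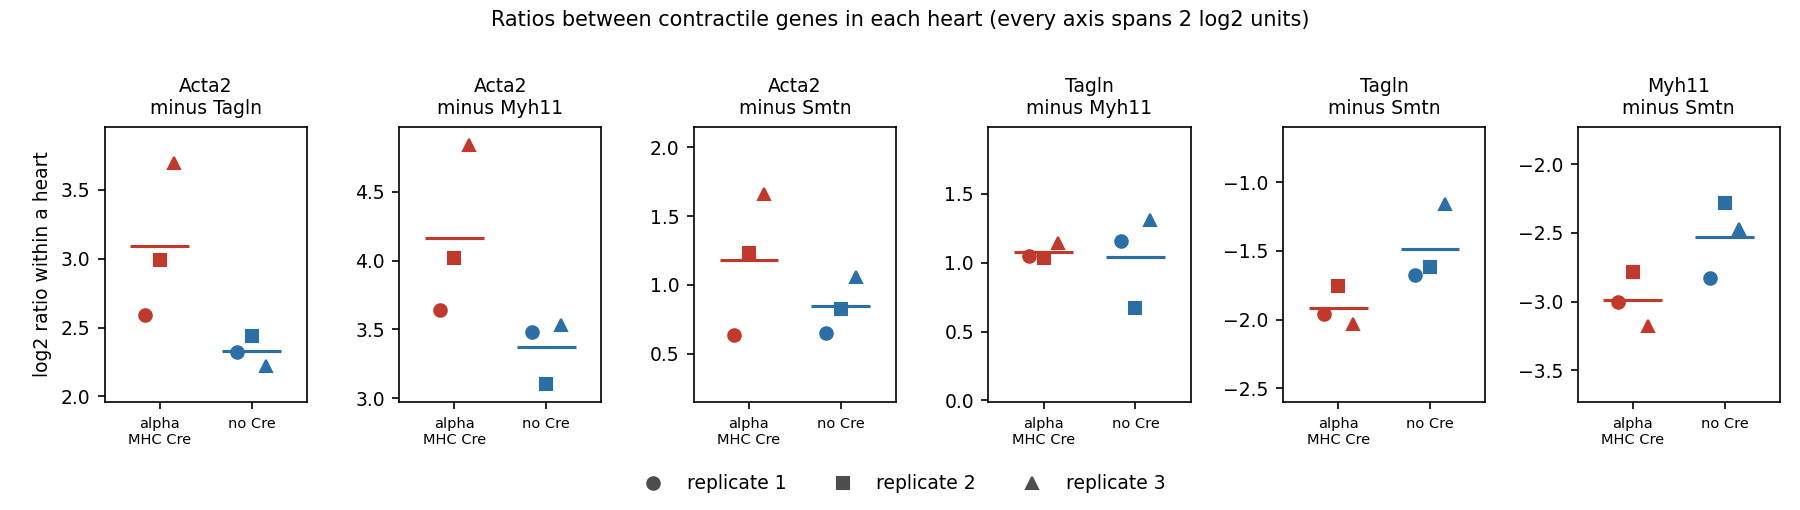
Log2 ratios within a heart for the 6 pairs of tested contractile genes, alpha MHC Cre hearts at the left and no Cre hearts at the right of each panel, with lines at group means. Acta2 relative to Tagln or Myh11, and Tagln relative to Smtn, are the pairs without overlap.

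The genes whose profile lay nearest to that of Acta2 over the 6 hearts were the homeobox gene Meox1, the interferon-inducible GTPase genes Igtp and Irgm2, the creatine kinase gene Ckb and the collagen gene Col5a1. Their root mean square distances, after centring each gene on its mean, were 0.20, 0.22, 0.23, 0.23 and 0.24 on the log2 scale. They were picked as the nearest of all 13062 tested genes, and the members are few. Their being nearer than any member therefore does not show which genes Acta2 follows. The nearest member was Smtn, at 0.36. Smtn itself was followed most closely by Gas6, Sipa1l1, Actn1, Cxcr4 and Arhgef7, at 0.041 to 0.052. Among the members the nearest pair was Myh11 and Rgs5, at 0.11. Genes with little variation lie near one another by this measure, so short distances between flat genes say little.

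Other genes of the contractile apparatus moved in both directions. Of the 19 tested, 2 rose and 2 fell, with a median difference of 0.18, where 4.2% of all tested genes rose and 2.04% fell. Differences were positive for 13 of the 19 and negative for 6. Without overlap between the groups, 7 were higher and 2 lower, where 1726 and 1686 of all 13062 tested genes were. As said above, this list does not report smooth muscle alone. Myl9, the regulatory light chain through which smooth muscle myosin is switched on, rose most. It read 10.93, 11.43 and 11.72 in alpha MHC Cre hearts against 8.04, 7.99 and 8.70 in no Cre hearts, with a wide gap between the groups. The difference was 3.12 ± 0.24 (SE), or 8.67-fold (limma, adjusted p 0.00021), and it passed in all 15 alternatives (adjusted p 3.2e-05 to 0.029). It is measured by 1 probe set. The closely related non-muscle light chain genes Myl12a and Myl12b, looked up after this value was seen, differed by 0.13 ± 0.14 and 0.14 ± 0.11 in their brightest probe sets and did not pass.

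Cnn2, the calponin of many non-muscle and smooth muscle cells, read 8.31, 8.43 and 8.79 in alpha MHC Cre hearts against 7.91, 7.94 and 7.90 in no Cre hearts. It rose by 0.60 ± 0.14 (limma, adjusted p 0.047), a call that did not survive the removal of any one heart (adjusted p 0.050 to 0.131). Synpo2, an actin-bundling protein of smooth and striated muscle, fell to 9.11, 9.12 and 9.38 in alpha MHC Cre hearts, against 10.31, 10.09 and 10.38 in no Cre hearts. The difference was -1.06 ± 0.13 (adjusted p 0.0027), and its other tested probe sets fell too, at -0.96 and -0.90. The striated muscle kinase gene Mylk4 fell by 1.95 ± 0.31 (adjusted p 0.0082), whereas Mylk, the kinase of smooth muscle, differed by 0.02 ± 0.14. Myl9 had the highest difference of these 19 genes. Csrp1, Ppp1r14a, Itga8, Ppp1r12a and Cald1 were higher without overlap, at 0.57, 0.50, 0.45, 0.45 and 0.42, but did not pass. The differences of Actg2, Tpm2 and Des, at 0.47, -0.17 and 0.16, did not pass either.

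Of 14 tested regulators of the smooth muscle programme, 0 passed by limma, and the median was 0.12. Srf, which encodes serum response factor, read 8.65, 8.43 and 8.79 in alpha MHC Cre hearts against 8.37, 7.99 and 8.23 in no Cre hearts. The groups did not overlap, but the difference of 0.42 ± 0.15 (SE) did not pass (adjusted p 0.16), and its second probe set differed by 0.23. Mef2c was lower without overlap, at -0.28 ± 0.11, and did not pass either (adjusted p 0.21). Heyl, a Notch target, differed by 0.31 ± 0.15, and by 0.12 and 0.10 in its other tested probe sets. Myocd, the gene for myocardin, differed by -0.10 ± 0.13.

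Of 12 other tested pericyte markers, 2 rose and 0 fell, with a median of -0.01. Nt5e, the ectoenzyme CD73, rose by 0.99 ± 0.14 (SE; adjusted p 0.0042), though 1 of its 3 tested probe sets differed by -0.05. Mcam, the adhesion molecule CD146, rose by 0.64 ± 0.13 (adjusted p 0.026), and this call was lost without any one of alpha MHC Cre 1, 2 and 3 or no Cre 1 (adjusted p 0.063 to 0.10). Both are also made by other cells, Mcam by endothelium and Nt5e by fibroblasts and lymphocytes. The mural cell markers Abcc9, Kcnj8, Higd1b and Notch3 differed by 0.07, -0.16, -0.01 and 0.16 and did not pass. Which cells of the apex gave the signal of these markers, or that of Rgs5, was not tested. Of the pericyte markers that did not pass, those without overlap between the groups were Vtn, the gene for vitronectin, at -0.58 ± 0.18 (adjusted p 0.119), and Ndufa4l2, at 0.34 ± 0.14 (adjusted p 0.225), in opposite directions. Of the 5 other PDGF ligands and receptors, Pdgfrl, a receptor-like secreted protein, rose by 0.87 ± 0.13 (adjusted p 0.0060). The fibroblast receptor Pdgfra and the ligands Pdgfa, Pdgfc and Pdgfd, at 0.05 to 0.39, did not pass.

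Acta2 is also made outside the vessel wall, and markers of fibroblasts and of stressed cardiomyocytes rose. Of 12 fibroblast markers 7 rose and 0 fell, with a median of 0.65, and their summed unlogged signal was 22770 to 27353 in alpha MHC Cre hearts against 14023 to 15957 in no Cre hearts. Postn, periostin of activated fibroblasts, rose by 1.36 ± 0.19 (SE; adjusted p 0.0049). Fap, the 1 fibroblast marker with a negative difference, was at -0.23 ± 0.18 and did not pass (limma, adjusted p 0.58). Of 7 fetal and stress genes of cardiomyocytes 5 rose, with a median of 2.30 and a summed signal of 42797 to 49517 in alpha MHC Cre hearts against 6430 to 14052 in no Cre hearts. Among the 5 is Myl7, with the largest difference, 7.30. It read 4.34, 3.39 and 3.42 in no Cre hearts, under the filter cutoff of 5.16. It entered the test only through the alpha MHC Cre hearts, with a mean of 11.02. Acta1, the skeletal muscle actin, rose by 2.30 ± 0.27 (adjusted p 0.0017). The bright Acta2 probe set carries the suffix by which Affymetrix marks probes shared between transcripts, and actin genes are close in sequence. The part of these genes and cells in the Acta2 and Myl9 values was not tested.

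In the remaining marker lists, 0 of 12 endothelial, 0 of 12 macrophage and 0 of 10 cardiomyocyte genes passed, with medians of 0.14, 0.06 and 0.00082. Several of the cardiomyocyte genes lay near the array maxima, as said above. The endothelial count depended on the processing: Eng, a TGF-beta coreceptor, at 0.49 ± 0.12 (adjusted p 0.058), passed in 6 of 15 alternatives, and Emcn, endomucin, at 0.46 ± 0.13 (adjusted p 0.077), passed in 5. The summed signal of the endothelial markers was 8082 to 8808 in alpha MHC Cre hearts against 6815 to 8403 in no Cre hearts. Both tested epicardial and mesothelial markers of 8 on the array rose, Aldh1a2 by 1.64 ± 0.29 and Upk1b by 0.63 ± 0.15 (SE). The call of Upk1b was lost in 8 of 15 alternatives, among them without any one of alpha MHC Cre 1, 2 and 3 and no Cre 1 and 2 (adjusted p up to 0.194). Of 4 tested Schwann cell markers, 3 had positive differences that did not pass, and the median of the 4 was 0.30. The remaining marker, Ngfr, fell by 0.67 ± 0.14, while another of its tested probe sets differed by -0.0048. This call was lost in 7 of 14 alternatives, with adjusted p up to 0.158. They included the mean of its probe sets, at -0.34, and the removal of any one heart other than alpha MHC Cre 2. The array gives no detection calls, so no marker is called absent. The contractile members had a summed signal of 2142 to 3769 in alpha MHC Cre hearts against 1552 to 2432 in no Cre hearts, and the groups overlapped. That of the pericyte members was 7391 to 7649 in alpha MHC Cre hearts against 6610 to 8114 in no Cre hearts, again with overlap.

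**Figure D5:**
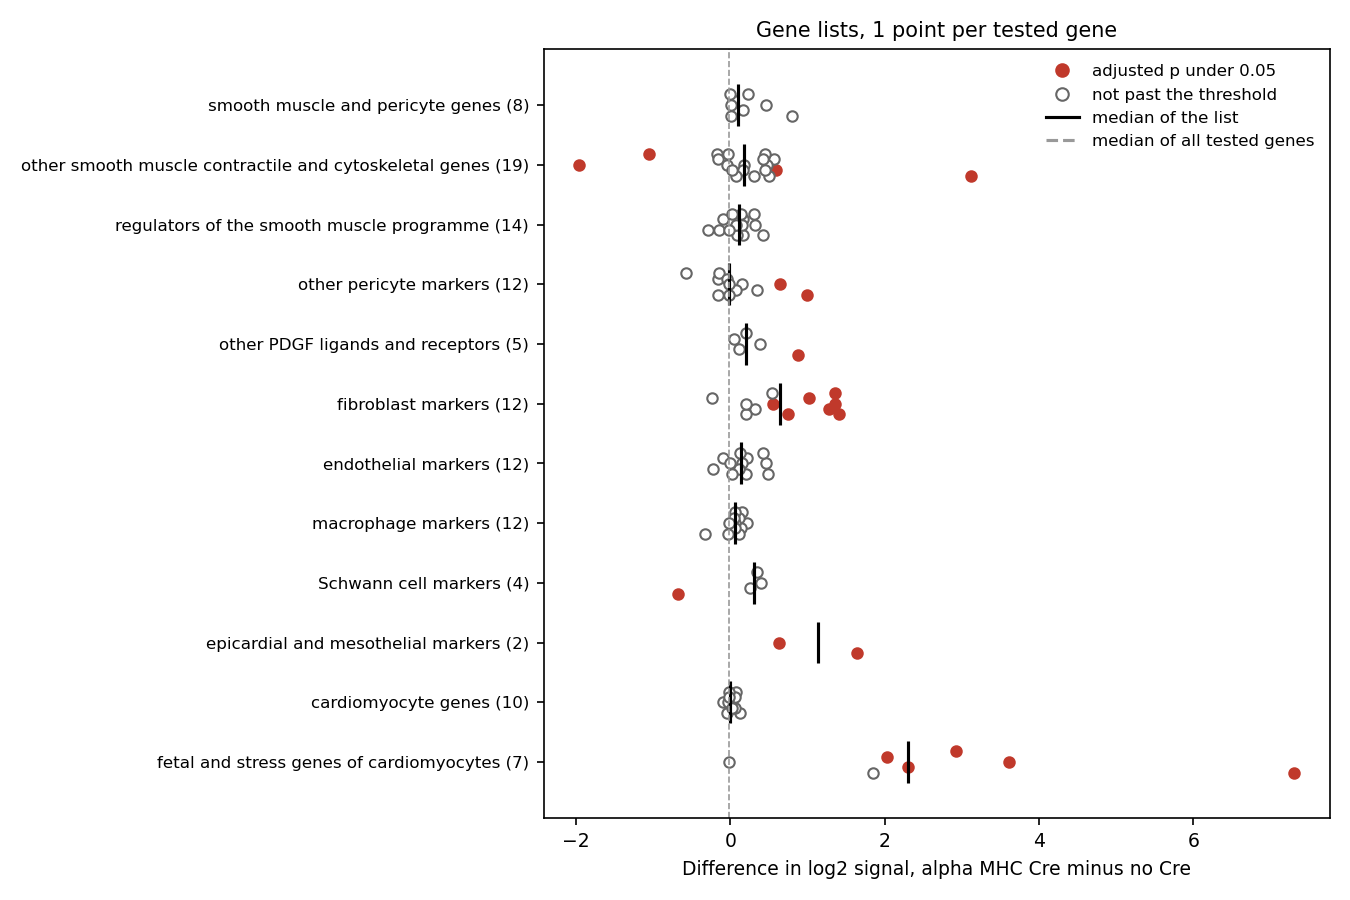
Differences in log2 signal, alpha MHC Cre minus no Cre, with 1 point per tested gene in each list and the number of tested genes in parentheses. The 8 smooth muscle and pericyte genes lie between -0.0014 and 0.80 with none past the threshold, while fibroblast markers and the fetal and stress genes of cardiomyocytes lie mostly to the right.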

How the data were processed

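Each deposited log2 value summarises the probes of 1 probe set on 1 array with PLIER, per the submitters' processing notes. The sources used here give no version or settings, and base 2 is inferred from the values. Of 45101 probe sets, 64 controls and, of the rest, the dimmest 40% by mean (18015) were left out, and 27022 were tested. No normalization was added, since array medians lay within 0.1. The fit used limma 3.58.1 (R 4.3.3) (two-sided) with Benjamini-Hochberg adjustment over all tested probe sets at 0.05. Intervals are 95% and unadjusted. A gene is represented by its brightest probe set, and names come from the platform annotation. The members and lists were chosen with earlier results of these data known. Named genes are all members, the nearest profiles of Acta2 and Smtn, and genes from the lists. From the smooth muscle, regulator, pericyte and PDGF lists these are up to 4 past the threshold, otherwise the 2 most different. Cell type lists are given mainly as counts, with only some of their genes named and not by that rule. Other genes were named after their values were seen. The replicate numbers were not taken to pair the hearts in the main fit. The correlation of deviations was -0.06, 0.21 and -0.19 for numbers 1, 2 and 3. Between unlike numbers it ran from -0.20 to 0.27, so with so few hearts it cannot show whether they were paired. The procedure was tested on simulated data. Alternatives covered normalization, filters, variance settings, array weights, the replicate number, an added offset of 16, gene representation and each heart left out. Within-heart ratios were chosen after the values were seen. Promoters are the 250 bases before the start site, from RefSeq (GRCm38.p6).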

Additional observations from a re-analysis of the deposited data

How the results depend on the processing

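The count of member genes and of member probe sets past the threshold was 0 in every alternative but one: with trend and robust variance settings it was 1, Smtn. The median difference of the members ran from 0.045 with genes as means of their probe sets to 0.178 without no Cre 3. Members near 0 changed sign: Myh11 was at -0.0033 and Pdgfrb at 0.016 with quantile normalization, and Rgs5 at -0.00065 as the mean of its probe sets. Leaving out single hearts, Tagln ran from -0.14 to 0.32, Myh11 from -0.16 to 0.16, Rgs5 from -0.090 to 0.083 and Pdgfrb from -0.10 to 0.11. Of all tested genes 815 passed, against 152 without a filter, 354 to 618 with single hearts left out (354 without alpha MHC Cre 2) and 536 with the replicate block, and against 1122 with trend and robust settings, 983 with the offset of 16, 978 with means over probe sets and 974 with array weights. With the replicate block 0 members passed, the adjusted p of Acta2 being 0.054. In the companion lists 7 of 49 genes passed, against 1 (Myl9) without a filter, where more dim probe sets entered the fit and Postn, Acta1 and Aldh1a2 did not pass either (adjusted p 0.095, 0.070 and 0.162), and 5 to 7 with single hearts left out. It was 10 with trend and robust settings and with means over probe sets, and 9 with the 60% filter and with the offset of 16. Of 15 alternatives, Cnn2 lost its call in 10, Upk1b in 8 and Mcam in 6, and Ngfr lost it in 7 of 14. The cause of these changes was not tested. Signal near the low end limits Cnn1 and Lmod1.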
